A study of Mus musculus with 8 samples.

Results

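Runx1, Cbfb, Etv6, Fli1, Erg, Lyl1, Lmo2 and Gata2 are 8 transcription factors of the blood stem cell programme. They were followed in LSK cells of mice carrying a conditional knockout of Msi2, the gene of the RNA-binding protein Musashi-2, and of normal mice. The members are these 8 genes of the 10720 genes measured. They were read on every probe set annotated to a member alone, 17 in all, of which 1, the Runx1 probe set 1452531_at, was listed at 0 on all arrays and 16 carried a signal. The KO cells came from bone marrow of 4 mice carrying a conditional Msi2 knockout (KO), labelled Msi2KO, and the controls from bone marrow of 4 normal mice, labelled WT. LSK stands for the marrow cells without lineage markers that are positive for Sca-1 and Kit, the fraction that holds blood stem cells and early multipotent progenitors. RNA of each sample was labelled with biotin and hybridised to an Affymetrix mouse array, which gives 8 arrays. The sources used here do not give the driver of the deletion, its timing, or the age and strain of the mice. All values are log2 signals normalized by the authors, in which a difference of 1 is a 2-fold change, and signals of different probe sets are not set against each other.

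These factors form a dense circuit in blood stem cells. RUNX1 binds DNA as a heterodimer with CBFB, which makes no contact with DNA itself and strengthens the binding of RUNX1. ERG and FLI1 are ETS activators, ETV6 is an ETS repressor, GATA2 is a zinc finger factor, LYL1 is a basic helix-loop-helix factor that pairs with E proteins, and LMO2 is a LIM protein that bridges such pairs to GATA factors. In blood progenitors RUNX1, ERG, FLI1, GATA2, LYL1 and LMO2, with TAL1, occupy many of the same enhancers, their own included. Several of the genes are broken or fused in human leukaemia.

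Msi2 itself read lower on each KO array than on any control, and the 4 KO arrays differed widely. The mean of its 4 bright probe sets, in percent of the control level, was 72.6%, 63.4%, 15.1% and 40.5% on Msi2 KO 1 to 4, against 111%, 91.1%, 101% and 97.2% on control 1 to 4. Msi2 KO 3, the array with the least Msi2, also stood apart from the rest. Its score on principal component 1, which held 28.6% of the variance, was 69.4, against -39.4 to 17.0 on the others, and it had the largest 3' minus 5' difference of actin (0.287, against -0.118 to 0.133) and the lowest array weight (0.538, against 0.626 to 1.97). Its Gapdh value of the same kind, 1.70, lay within that of the other arrays (1.35 to 1.85). Its summed linear signal of 8 stem and progenitor markers (Kit, Cd34, Flt3, Slamf1, Mecom, Hlf, Procr and Esam) was 1875, against 4465 to 4941 on the other KO arrays and 4628 to 5071 on control arrays. That of 10 erythroid markers was 23787, against 8405 to 12185 on the other KO arrays and 5093 to 10393 on control arrays. Of 11 markers of mature blood lineages on the array, 8 (Cd3e, Cd3g, Ms4a1, Cd79a, Itgam, Camp, Ltf and Ncr1) were listed at 0. Many values are therefore also given without Msi2 KO 3. Control 1 had the lowest score on component 1 (-39.4) and, after Msi2 KO 3, the lowest array weight (0.626). Some values are also given without control 1. In such bulk RNA fewer cells of a type and less RNA per cell cannot be told apart. The number of arrays limits the precision of every difference.

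Most of the 8 factors were close to their control level in Msi2 KO cells, and Erg was the member with the lowest reading. None of the 16 probe sets passed limma's test at an adjusted p of 0.05, with Benjamini-Hochberg adjustment over all 24404 probe sets, of which 0% passed. The adjusted p of the members ran from 0.466 to 0.988. That of the 4 bright Msi2 probe sets ran from 0.378 to 0.517, although their groups did not overlap. At an unadjusted p under 0.05 stood 1 of 16 member probe sets, against 9.72% of all probe sets, so the members' share lay near the background. Groups without overlap were found for 1 of 16, again Erg, against 6.09% of all probe sets. Differences ran from -0.74 to 0.30, with 10 of 16 lower in Msi2 KO and a median of -0.14, against 12186 of 24404 lower and a median of 0.00051 over all probe sets. For 13 of 16 the 95% interval of the difference lay within a 2-fold change in either direction, and the exceptions were both Erg probe sets and Etv6 1423401_at. Without Msi2 KO 3, 8 of 16 were lower and the median was 0.0014.

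**Figure D1:**
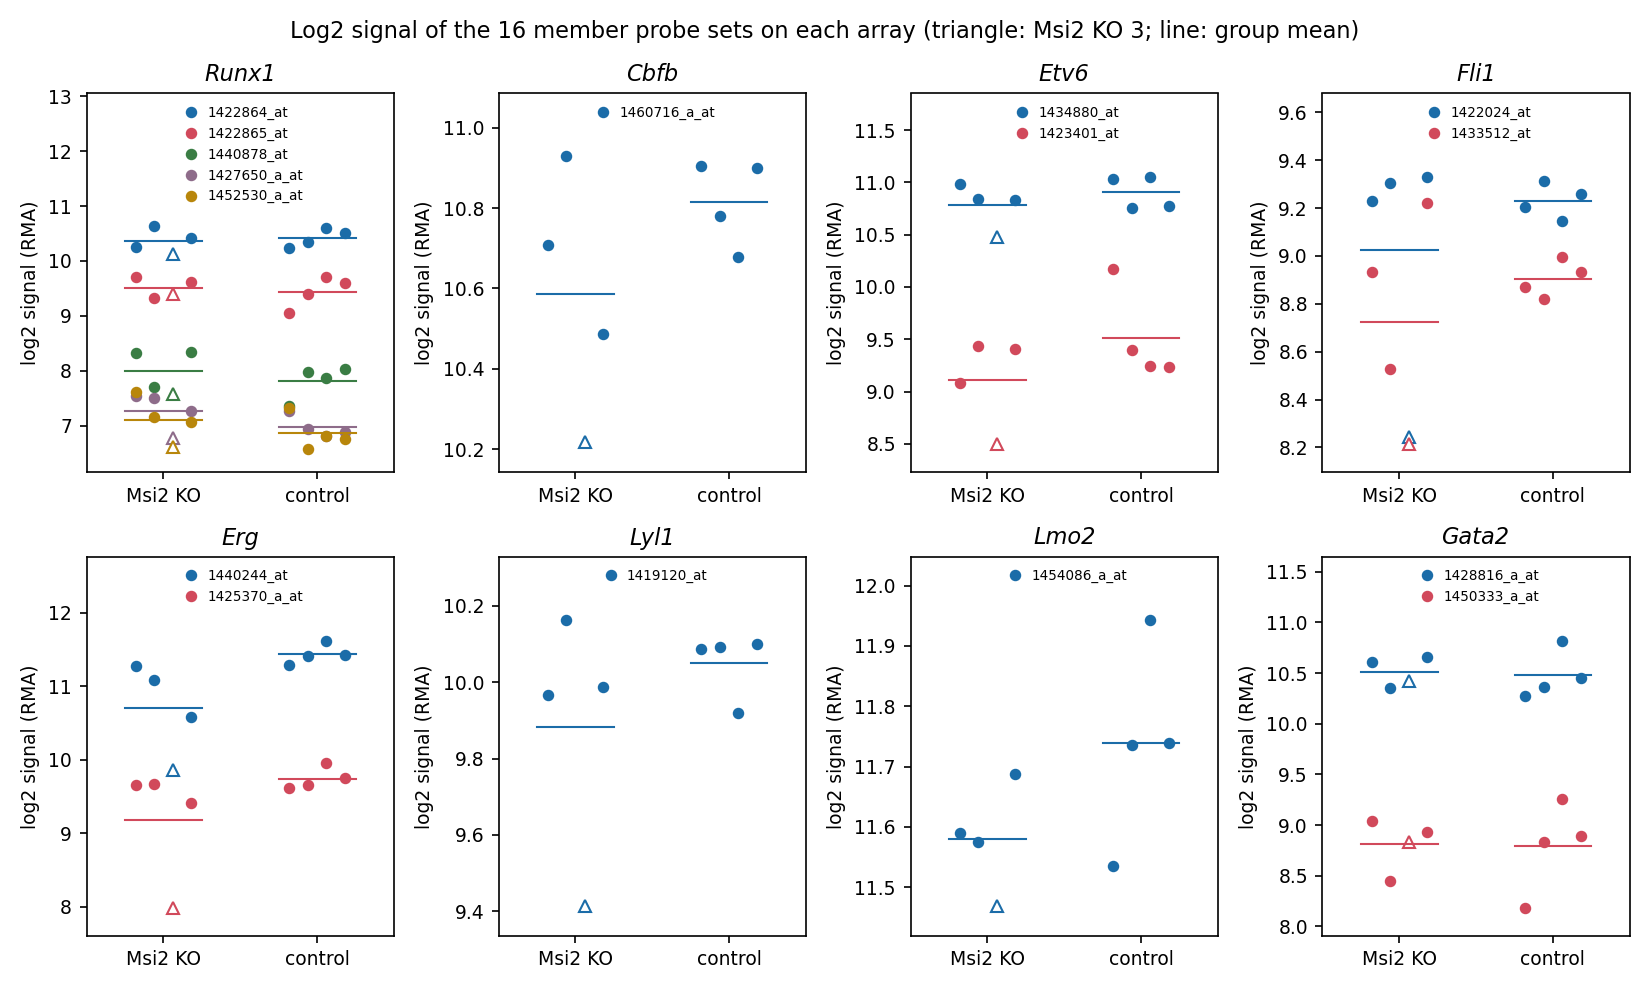
Log2 RMA signal (vertical axis) of the 16 member probe sets in 8 panels, 1 per gene, with Msi2 KO arrays on the left and control arrays on the right of each panel. Points are arrays, the open triangle is Msi2 KO 3, horizontal lines are group means and colours are probe sets. The triangle is the lowest of the 4 KO arrays for 13 of 16 probe sets, and the groups overlap for all but Erg 1440244_at.

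RUNX1, the DNA-binding subunit of the core-binding factor, is needed for the first blood stem cells to arise in the embryo and holds lineage balance later. Its brightest probe set, 1422864_at, read 10.26, 10.64, 10.13 and 10.41 on Msi2 KO 1 to 4, against 10.23, 10.35, 10.60 and 10.50 on control 1 to 4. The KO arrays lay on both sides of the controls, with the highest value on Msi2 KO 2 and the lowest on Msi2 KO 3. The difference was -0.06 ± 0.15 (SE, 95% interval -0.41 to 0.29, adjusted p 0.932), a fold of 0.958 with an interval of 0.753 to 1.22. Without Msi2 KO 3 the difference was 0.015. The second probe set, 1422865_at, read 9.71, 9.32, 9.40 and 9.61 on Msi2 KO 1 to 4, against 9.05, 9.40, 9.72 and 9.61 on control 1 to 4, and its KO arrays all lay within the range of the controls. Its difference was 0.07 ± 0.18 (SE, 95% interval -0.33 to 0.47, adjusted p 0.934).

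The other measured Runx1 probe sets were 1440878_at, 1427650_a_at and 1452530_a_at, and their means were higher in Msi2 KO. Probe set 1427650_a_at read 7.54, 7.51, 6.77 and 7.27 on Msi2 KO 1 to 4, against 7.27, 6.95, 6.82 and 6.88 on control 1 to 4. Here 3 of 4 KO arrays lay above the highest control, Msi2 KO 4 by under 0.01, Msi2 KO 3 lay below the lowest one, and the difference was 0.30 ± 0.20 (SE, 95% interval -0.15 to 0.74, adjusted p 0.663). Without Msi2 KO 3 it was 0.46 (adjusted p 0.500). Probe set 1440878_at differed by 0.18 ± 0.23 (SE, 95% interval -0.34 to 0.70, adjusted p 0.851) and 1452530_a_at by 0.25 ± 0.24 (SE, 95% interval -0.29 to 0.78, adjusted p 0.786). Probe sets 1427650_a_at and 1452530_a_at ran together over the 8 arrays (Pearson's r 0.885, exact permutation p 0.0075, adjusted 0.035 over 14 pairs of probe sets of the same gene; Spearman's rho 0.762, exact permutation p 0.037, adjusted 0.172), and r was 0.856 without the 2 arrays farthest from the median. Their r with the brightest probe set was 0.069 and -0.095 (exact permutation p 0.864 and 0.819), and -0.790 and -0.660 without the 2 arrays farthest from the median. No difference between Msi2 KO and control could be told apart between the probe sets of a gene: over the 14 pairs in 5 genes the lowest adjusted p of an exact permutation test was 0.850. The sources used here do not say which Runx1 transcripts each probe set reads.

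Runx1 is transcribed from a distal and a proximal promoter, and the pair is shown because the Runx1 probe sets differ in sign. The windows span 250 bases before to 50 after the start (RefSeq, GRCm38.p6), 5′ to 3′ on the gene's strand, with matches on either strand in capitals. The word searched for RUNX factors was TGTGGT. Those searched for GATA factors were AGATAA and also TGATAA. Those searched for ETS factors were AGGAAG and also CGGAAG.
Runx1 distal (chr16:92826025-92826324, minus strand): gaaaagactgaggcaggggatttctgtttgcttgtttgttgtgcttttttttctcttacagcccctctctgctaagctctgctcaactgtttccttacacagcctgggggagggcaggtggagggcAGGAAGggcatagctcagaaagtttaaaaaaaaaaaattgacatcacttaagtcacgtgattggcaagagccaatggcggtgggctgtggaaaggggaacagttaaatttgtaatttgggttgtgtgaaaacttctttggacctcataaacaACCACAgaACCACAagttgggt
Runx1 proximal (chr16:92697280-92697579, minus strand): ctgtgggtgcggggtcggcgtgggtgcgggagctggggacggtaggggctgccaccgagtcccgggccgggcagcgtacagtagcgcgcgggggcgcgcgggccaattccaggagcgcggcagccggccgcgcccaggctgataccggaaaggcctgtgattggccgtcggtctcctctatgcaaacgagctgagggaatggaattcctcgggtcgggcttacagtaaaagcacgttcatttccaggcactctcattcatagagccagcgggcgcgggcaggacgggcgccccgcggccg
The distal window held 2 RUNX matches, both on the opposite strand and with their first bases 29 and 37 bases after the start, and 1 ETS match. The proximal window held none of these words. Of all 32851 RefSeq windows of this length, 16.8% held a RUNX match, 18.6% a GATA match and 46.5% an ETS match, and the RUNX words lay in 1 of the 10 windows found for 6 of the members (Runx1, Cbfb, Etv6, Erg, Lyl1 and Gata2). The words did not overlap each other in these windows.

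CBFB, the partner subunit that stabilises RUNX1 on DNA, read 10.71, 10.93, 10.22 and 10.49 on Msi2 KO 1 to 4, against 10.90, 10.78, 10.68 and 10.90 on control 1 to 4 on its probe set 1460716_a_at. Msi2 KO 3 and Msi2 KO 4 lay below every control, Msi2 KO 2 lay above all of them, and the groups overlapped. The difference was -0.23 ± 0.17 (SE, 95% interval -0.61 to 0.15, adjusted p 0.700), and -0.11 without Msi2 KO 3. The interval of the fold, 0.654 to 1.11, covers no change.

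ERG, the ETS factor that adult blood stem cells need to persist, was the member with the lowest KO reading relative to control. Its brighter probe set, 1440244_at, read 11.28, 11.09, 9.86 and 10.57 on Msi2 KO 1 to 4, against 11.29, 11.41, 11.62 and 11.43 on control 1 to 4. Every KO array lay below every control, but Msi2 KO 1 (11.276) and control 1 (11.289) differed by little, while Msi2 KO 3 and Msi2 KO 4 stood far below. Its means were 10.70 ± 0.63 in Msi2 KO and 11.44 ± 0.14 in control (SD, n = 4 each). The difference was -0.74 ± 0.28 (SE, 95% interval -1.37 to -0.10, adjusted p 0.466), a fold of 0.601 with an interval of 0.387 to 0.934. An exact permutation test gave a two-sided p of 0.0286, the smallest that 4 arrays against 4 can give. Groups of 4 without overlap always give this p, so it adds nothing to the non-overlap. It is not adjusted for the 16 member probe sets. Non-overlap occurred in 6.09% of all probe sets in either direction, and in 2.96% with KO below control. Without Msi2 KO 3 the difference was -0.46 (95% interval -0.89 to -0.02, adjusted p 0.556), a move of over 1.5 times.

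The other Erg probe set, 1425370_a_at, read 9.65, 9.67, 7.98 and 9.40 on Msi2 KO 1 to 4, against 9.61, 9.66, 9.95 and 9.74 on control 1 to 4. Msi2 KO 3 and Msi2 KO 4 were below every control, while Msi2 KO 1 and Msi2 KO 2 lay within the range of the controls. The difference was -0.56 ± 0.35 (SE, 95% interval -1.35 to 0.22, adjusted p 0.633), and -0.17 without Msi2 KO 3, again a move of over 1.5 times. Both Erg probe sets ran together over the 8 arrays (Pearson's r 0.934, exact permutation p 0.0018, adjusted 0.0125; Spearman's rho 0.833, exact permutation p 0.015, adjusted 0.108). Without the 2 arrays farthest from the median r was 0.767.

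Erg 1440244_at, in percent of its control level, was 89.6%, 78.5%, 33.7% and 55.0% on Msi2 KO 1 to 4, against 90.4%, 98.2%, 113% and 99.3% on control 1 to 4. The KO arrays thus had the same order for this probe set as for Msi2, highest on Msi2 KO 1, then Msi2 KO 2, Msi2 KO 4 and Msi2 KO 3. That order was also found for Runx1 1427650_a_at, Runx1 1452530_a_at and Etv6 1434880_at, so for 4 of 16 member probe sets. These 2 Runx1 probe sets ran together, as given above, and their means were higher in Msi2 KO, while that of Erg was lower. Over all probe sets the order was found for 1715 of 24404 (7.03%), and the opposite order for 1741. Msi2 KO 3 was the lowest KO array for 13 of 16 member probe sets, against 7029 of 24404 probe sets. With 4 KO arrays no test was made of it. The actin difference and the stem cell and erythroid markers moved with Msi2 KO 3 as given above, and their part in the Erg reading was not tested. Xist, the inactive X chromosome's RNA, read 5.55, 4.79, 11.92 and 12.40 on Msi2 KO 1 to 4. On control 1 to 4 it read 5.39, 12.26, 12.40 and 12.51. Msi2 KO 3 and Msi2 KO 4, the KO arrays lowest in Msi2 and in Erg 1440244_at, were thus those with high Xist. The Erg 1440244_at difference was -1.26 in the high-Xist arrays alone and -0.86 with Xist as a covariate. The part of Xist in the order of the KO arrays was not tested. Erg and Fli1 are also active in endothelium. Of 15 endothelial markers on the array, 6 (Kdr, Plvap, Cldn5, Sox17, Sox18 and Stab2) were listed at 0. Cdh5 read 3.61 in Msi2 KO and 3.38 in control. That is about the level read where a transcript is lacking (3.36 to 3.62 for Eif2s3y on 5 arrays). The summed linear signal of the 9 measured markers was 873 to 1454 on KO arrays and 1466 to 1778 on control arrays. These ranges did not overlap, but Msi2 KO 2 (1454) and control 2 (1466) differed by little. The part of these markers in the Erg reading was not tested.

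**Figure D2:**
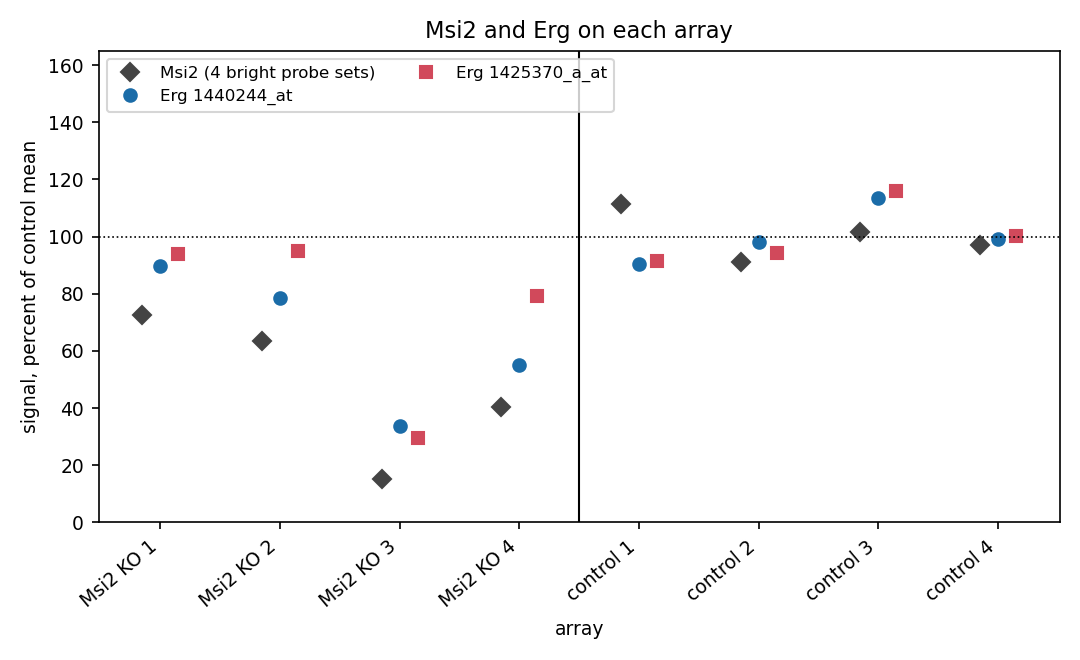
Signal in percent of the control mean (vertical axis) on each of the 8 arrays (horizontal axis, KO arrays left of the line), for the mean of the 4 bright Msi2 probe sets (diamonds) and for the Erg probe sets 1440244_at (circles) and 1425370_a_at (squares). Msi2 and Erg 1440244_at are lowest on Msi2 KO 3, at 15.1% and 33.7%, and next lowest on Msi2 KO 4, at 40.5% and 55.0%.

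RefSeq lists 3 start sites for Erg, shown because Erg was the member whose groups did not overlap, with the same words in capitals.
Erg upstream (chr16:95586544-95586843, minus strand): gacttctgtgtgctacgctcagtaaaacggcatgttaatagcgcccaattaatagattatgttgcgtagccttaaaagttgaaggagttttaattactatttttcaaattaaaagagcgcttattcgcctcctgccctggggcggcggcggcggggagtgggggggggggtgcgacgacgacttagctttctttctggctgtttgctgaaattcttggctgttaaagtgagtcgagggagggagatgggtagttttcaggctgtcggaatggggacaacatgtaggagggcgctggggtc
Erg middle (chr16:95530316-95530615, minus strand): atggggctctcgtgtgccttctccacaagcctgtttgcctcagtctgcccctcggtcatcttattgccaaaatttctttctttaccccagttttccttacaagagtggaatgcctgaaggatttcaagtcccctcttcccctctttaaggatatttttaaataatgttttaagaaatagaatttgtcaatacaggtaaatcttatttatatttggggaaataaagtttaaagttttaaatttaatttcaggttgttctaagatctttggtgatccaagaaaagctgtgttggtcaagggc
Erg downstream (chr16:95459299-95459598, minus strand): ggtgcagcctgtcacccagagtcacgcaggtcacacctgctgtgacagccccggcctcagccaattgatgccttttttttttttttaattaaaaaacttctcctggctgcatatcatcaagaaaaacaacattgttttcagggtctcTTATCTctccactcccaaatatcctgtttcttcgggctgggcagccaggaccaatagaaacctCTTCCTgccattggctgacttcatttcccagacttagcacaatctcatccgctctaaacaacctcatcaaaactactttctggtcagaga
The downstream window held 1 GATA match, 103 bases before the start, and 1 ETS match, 40 bases before it, both on the opposite strand. Its GC content was 46.0%, against a median of 52.7% over all windows. The upstream and middle windows held none of the words.

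FLI1, the close relative of ERG that also drives megakaryocyte genes, was near its control level on 3 of the 4 KO arrays on its brighter probe set. Probe set 1422024_at read 9.23, 9.31, 8.24 and 9.33 on Msi2 KO 1 to 4, against 9.20, 9.31, 9.15 and 9.26 on control 1 to 4. Msi2 KO 3 was about 1 unit below all other arrays, Msi2 KO 4 lay slightly above the highest control, and the controls were tight (SD 0.52 in Msi2 KO, against 0.07 in control). The difference was -0.20 ± 0.24 (SE, 95% interval -0.74 to 0.34, adjusted p 0.836), and without Msi2 KO 3 it changed sign, to 0.06. Probe set 1433512_at read 8.93, 8.53, 8.21 and 9.22 on Msi2 KO 1 to 4, against 8.87, 8.82, 8.99 and 8.93 on control 1 to 4, with Msi2 KO 2 and Msi2 KO 3 below the controls and Msi2 KO 4 above them. It differed by -0.18 ± 0.21 (SE, 95% interval -0.66 to 0.30, adjusted p 0.835), and by -0.01 without Msi2 KO 3. The Fli1 probe sets had r of 0.758 over the 8 arrays (exact permutation p 0.143, rho 0.262 with exact permutation p 0.536) but 0.040 without the 2 arrays farthest from the median, so the relation rests on those arrays.

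ETV6, an ETS repressor that adult blood stem cells need for survival in the marrow, read 10.98, 10.84, 10.48 and 10.83 on Msi2 KO 1 to 4, against 11.03, 10.76, 11.05 and 10.78 on control 1 to 4 on its brighter probe set 1434880_at. Msi2 KO 3 lay below the lowest control and the other KO arrays within their range. The difference was -0.12 ± 0.15 (SE, 95% interval -0.46 to 0.22, adjusted p 0.849), and -0.02 without Msi2 KO 3. Probe set 1423401_at read 9.09, 9.43, 8.50 and 9.41 on Msi2 KO 1 to 4, against 10.17, 9.39, 9.25 and 9.24 on control 1 to 4, where control 1 stood above the rest of its group and Msi2 KO 1 and Msi2 KO 3 below every control. It differed by -0.41 ± 0.27 (SE, 95% interval -1.02 to 0.21, adjusted p 0.669), by -0.20 without Msi2 KO 3 and by -0.19 without control 1, so that leaving out either array moved the value by over 1.5 times.

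LYL1, which pairs with E proteins and can stand in for TAL1 in adult stem cells, read 9.97, 10.16, 9.41 and 9.99 on Msi2 KO 1 to 4, against 10.09, 10.09, 9.92 and 10.10 on control 1 to 4 on 1419120_at. Msi2 KO 3 was the lowest array and Msi2 KO 2 the highest. The difference was -0.17 ± 0.17 (SE, 95% interval -0.56 to 0.22, adjusted p 0.808), and -0.01 without Msi2 KO 3. LMO2, the bridge between these helix-loop-helix pairs and GATA factors, read 11.59, 11.57, 11.47 and 11.69 on Msi2 KO 1 to 4, against 11.53, 11.74, 11.94 and 11.74 on control 1 to 4 on 1454086_a_at. The KO arrays lay close together in the lower part of the control range, with Msi2 KO 3 just below control 1. Its difference was -0.16 ± 0.13 (SE, 95% interval -0.46 to 0.14, adjusted p 0.746), and -0.12 without Msi2 KO 3. The interval of its fold, 0.728 to 1.10, was the narrowest of the 16 probe sets.

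GATA2, which expands and maintains stem cells and is used again in mast cells, read near its control level. Its brighter probe set, 1428816_a_at, read 10.61, 10.35, 10.42 and 10.66 on Msi2 KO 1 to 4, against 10.28, 10.36, 10.82 and 10.46 on control 1 to 4. All KO arrays lay within the control range, Msi2 KO 3 among them, and the controls spread more than the KO arrays (SD 0.15 in Msi2 KO, against 0.24 in control). The difference was 0.03 ± 0.16 (SE, 95% interval -0.32 to 0.39, adjusted p 0.970), a fold of 1.02 with an interval of 0.801 to 1.31. Probe set 1450333_a_at read 9.04, 8.45, 8.84 and 8.93 on Msi2 KO 1 to 4, against 8.19, 8.84, 9.25 and 8.89 on control 1 to 4 and differed by 0.02 ± 0.23 (SE, 95% interval -0.50 to 0.55, adjusted p 0.988), again with all KO arrays inside the control range. The Gata2 probe sets ran together (r 0.847, exact permutation p 0.0006, adjusted 0.0083; rho 0.952, exact permutation p 0.0011, adjusted 0.016), and r was 0.832 without the 2 arrays farthest from the median. Among the 8 genes Gata2 was the one whose brightest probe set was not lowest on Msi2 KO 3.

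**Figure D3:**
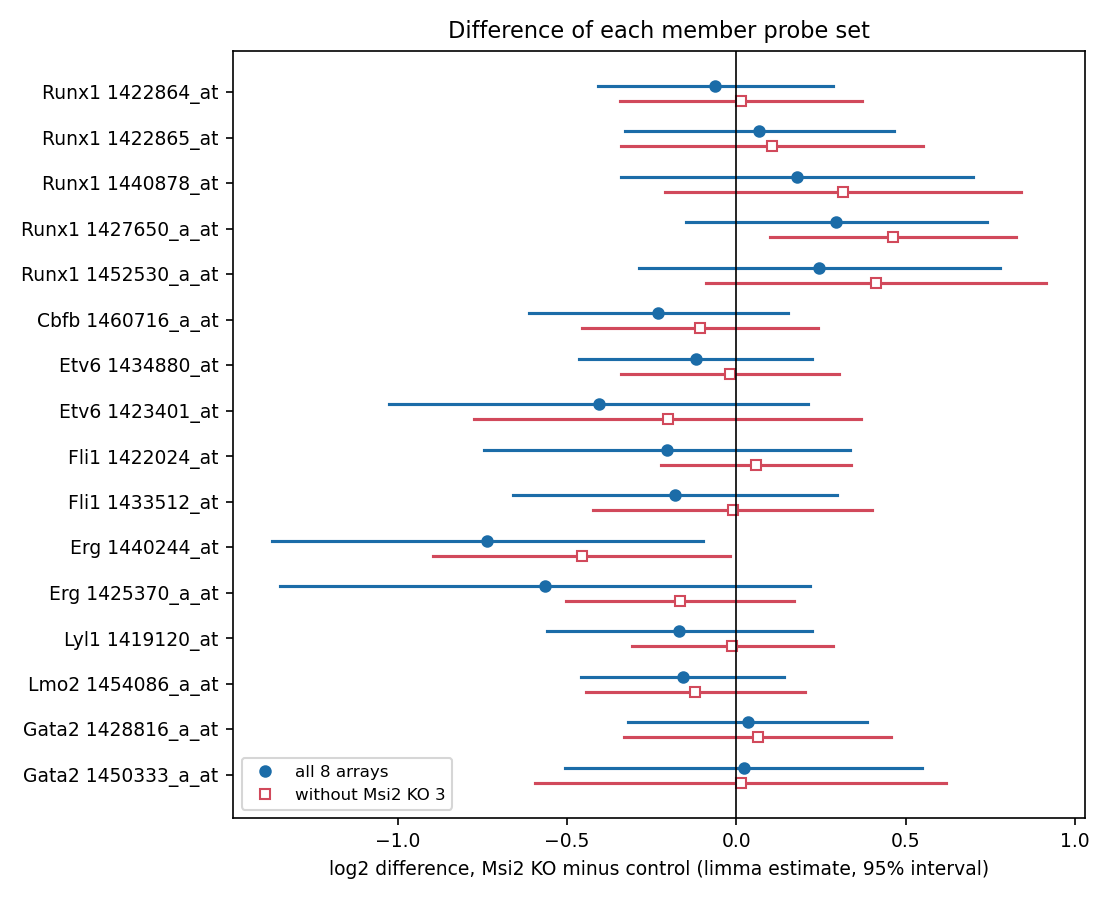
Log2 difference, Msi2 KO minus control (horizontal axis), of each member probe set (rows), as limma's estimate with its 95% interval, from all 8 arrays (filled circles) and without Msi2 KO 3 (open squares). With all arrays the interval of Erg 1440244_at is the only one that leaves out 0, and without Msi2 KO 3 those of Erg 1440244_at and Runx1 1427650_a_at do.

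Seen array by array, the members were low together on 1 array. On Msi2 KO 3, 7 of the 8 genes were below their lowest control on the brightest probe set, against 1, 1 and 2 on Msi2 KO 1, Msi2 KO 2 and Msi2 KO 4. The mean deviation of the 8 genes from the control mean was -0.06, -0.02, -0.60 and -0.14 on Msi2 KO 1 to 4, against -0.06, -0.03, 0.09 and 0.01 on control 1 to 4. Erg (-1.57) and Fli1 (-0.99) were farthest from control on Msi2 KO 3, followed by Lyl1 (-0.64) and Cbfb (-0.60). Etv6 (-0.42), Runx1 (-0.29) and Lmo2 (-0.27) were nearer, and Gata2 was at -0.06. Msi2 KO 3 was the lowest of all arrays for 11 of 16 member probe sets (68.8%), against 18.7% of all probe sets. The SD was larger in Msi2 KO than in control for 11 of 16, against 58.1% of all probe sets. On Msi2 KO 4, Erg (-0.86) and Cbfb (-0.33) lay below the controls, while Fli1 (0.10) and Gata2 (0.18) did not. The array quality and marker values of Msi2 KO 3 given above moved with this pattern, and their part in it was not tested.

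**Figure D4:**
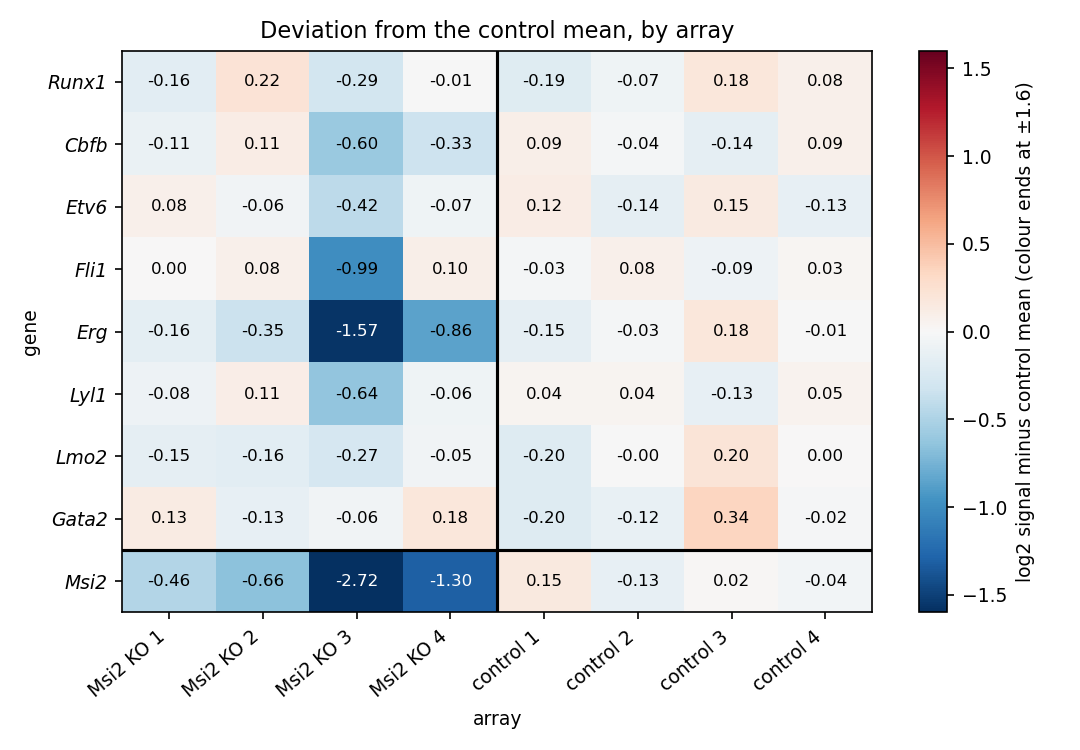
Deviation of the log2 signal from the control mean for the brightest probe set of each member (rows) and, below the line, for the mean of the 4 bright Msi2 probe sets, on each array (columns, KO arrays left of the line). Colours end at 1.6 in either direction and the numbers give the values, of which those of Erg are -1.57 on Msi2 KO 3 and -0.86 on Msi2 KO 4.

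The genes whose pattern over the 8 arrays was nearest to the mean of the members were Retreg1 (Pearson's r 0.991, and 0.945 without Msi2 KO 3), Ctla2b (0.982 and 0.872), Nckap1l (0.980 and 0.789), Arhgef6 (0.980 and 0.865) and Vasn (0.974 and 0.887). They were picked as the 5 highest of all other genes tested, so these values are a description with no p. Ctla2b read 9.76, 10.00, 7.63 and 9.48 on Msi2 KO 1 to 4, against 10.26, 10.20, 10.58 and 10.43 on control 1 to 4. All 5 read lowest on Msi2 KO 3.

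The partners of the members were read from gene lists, each gene by its brightest probe set, and no gene of any list passed the adjusted threshold, which 0% of the 10720 genes did. For the genes named here a list gives the 3 with the smallest p, with the mean ± SD (n = 4 each) and the difference ± SE. Of all genes, 5317 of 10720 were lower in Msi2 KO and the median difference was 0.0022. At an unadjusted p under 0.05 stood 5.66% of all genes as lower and 5.74% as higher in Msi2 KO.

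The complex that LMO2 and LYL1 build with TAL1, LDB1 and E proteins was near its control level or slightly above. Of 10 measured genes 7 were higher in Msi2 KO, with a median of 0.21, and 0 had an unadjusted p under 0.05. The median was 0.12 without Msi2 KO 2 and 0.13 without control 4, moves of over 1.5 times. Tal1, the stem cell and erythroid helix-loop-helix factor, read 8.46 ± 0.46 in Msi2 KO and 8.10 ± 0.29 in control, a difference of 0.37 ± 0.24, and 0.19 without Msi2 KO 3, the array on which it was highest. Ssbp3, a stabiliser of LDB1, differed by 0.21 ± 0.13, and Id2, an inhibitor of E proteins, by 0.38 ± 0.17 (4.37 in Msi2 KO and 4.00 in control). Id2 was dim, and on control 4 it read 3.67, close to the level where a transcript is lacking (3.36 to 3.62 for Eif2s3y). Lmo1, Nhlh1, Id1 and Id3 were listed at 0.

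RUNX family members and cofactors had 9 of 16 genes higher, a median of 0.03 and 0 with an unadjusted p under 0.05. Leaving out Msi2 KO 2 turned the median to -0.034, and without any other single array it ran from 0.0045 to 0.068. Prmt1, an arginine methyltransferase that modifies RUNX1, read 10.25 ± 0.19 in Msi2 KO and 9.95 ± 0.09 in control, a difference of 0.30 ± 0.14, and its KO arrays all lay above the controls, as for 3.63% of all genes. Hdac3, a histone deacetylase of corepressor complexes, differed by 0.39 ± 0.18, and Kmt2a, the histone methyltransferase MLL, by 0.32 ± 0.19.

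Most of the other ETS factors read lower in Msi2 KO. Of 15 measured genes 13 were lower, with a median of -0.23, and -0.15 without Msi2 KO 3. These counts include Gabpb1, a partner subunit and not an ETS factor itself. An unadjusted p under 0.05 was reached by 2 as lower and 0 as higher. Elf1, the other of the 2, read 8.51 ± 0.20 in Msi2 KO and 9.13 ± 0.39 in control, a difference of -0.62 ± 0.21. Gabpb1, the partner subunit of the ETS factor GABPA, is 1 of these 2. It read 8.06 ± 0.12 in Msi2 KO and 8.39 ± 0.06 in control, a difference of -0.32 ± 0.12. Its groups did not overlap, as for 3.48% of all genes with KO below control. Elf4 differed by -0.23 ± 0.13. Spib, Etv4 and Etv2 were listed at 0.

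Gata1 and its cofactor Zfpm1 had higher means in Msi2 KO, by more than Gata2 did. Gata1, the erythroid GATA factor that takes over from GATA2 at shared sites, read 7.47 ± 0.76 in Msi2 KO and 6.10 ± 0.47 in control, a difference of 1.37 ± 0.37 (adjusted p 0.287). Gata1 was highest on Msi2 KO 3 (8.46), and without that array its difference was 1.04. Its groups overlapped, with 6.63 on Msi2 KO 1 against 6.72 on control 2. Zfpm1 read 7.60 ± 0.26 in Msi2 KO and 6.54 ± 0.30 in control, a difference of 1.05 ± 0.19 (adjusted p 0.226). Med1, a Mediator subunit that binds GATA factors, differed by -0.30 ± 0.17. Of the 4 measured genes of this list 2 were higher. Gata3, Gata4, Gata6 and Zfpm2 were listed at 0.

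Genes known as targets of the members were read by factor, and the lists share genes. Of 14 measured RUNX1 targets 7 were lower and 7 higher, with a median of 0.03 (-0.095 without control 1), and 4 lower and 1 higher had an unadjusted p under 0.05. Cd244a, a SLAM family receptor, read 8.25 ± 0.58 in Msi2 KO and 9.50 ± 0.20 in control, a difference of -1.26 ± 0.27. The cell cycle inhibitor Cdkn1a differed by -0.71 ± 0.18 and the repressor Gfi1 by -0.60 ± 0.16. For these 3 genes, picked by their p, the groups did not overlap. That was so with KO below control for 3 of the 14, against 3.48% of all genes.

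Of 11 measured GATA2 targets 9 were higher, with a median of 0.72, and 5 higher and 1 lower had an unadjusted p under 0.05. The median was 0.24 without control 1 and 0.34 over the 5 genes that were left when those below the median level of all genes were left out. Fcer1a, a chain of the IgE receptor, read 6.87 ± 0.64 in Msi2 KO and 4.27 ± 0.60 in control, a difference of 2.60 ± 0.37 (adjusted p 0.176). Cpa3, the mast cell carboxypeptidase, differed by 1.87 ± 0.42, and Zfpm1 is on this list too. Of the 11, 4 (36.4% of the targets and 57.1% of the 7 measured mast cell and basophil markers) are mast cell and basophil markers, and the other 7 had 5 higher and a median of 0.37. The summed linear signal of these 7 markers was 577 to 1213 on KO arrays and 220 to 611 on control arrays, with Gzmb, Tpsab1 and Mcpt4 listed at 0. Control 1 read 220 and the other controls 533 to 611. The part of these markers in the list's values was not tested.

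Of 13 measured ETS targets of stem cells and endothelium 9 were lower, with a median of -0.55, and -0.45 without Msi2 KO 3. Without genes below the median level of all genes 3 were left, and the median turned to 0.48. An unadjusted p under 0.05 was reached by 6 as lower and 0 as higher. Hhex, a homeobox factor of progenitors, read 9.79 ± 0.14 in Msi2 KO and 10.34 ± 0.22 in control, a difference of -0.55 ± 0.15. Its groups did not overlap, as for 2 of the 13 and for 3.48% of all genes with KO below control. Robo4, a receptor of stem cells and endothelium, differed by -0.96 ± 0.27 and the angiopoietin receptor Tek by -0.90 ± 0.29. On this list 8 of the 13 are endothelial markers, and the other 5 had 3 lower and a median of -0.14. Of 17 further regulators bound by the same factors 13 were lower, with a median of -0.22. It ran from -0.38 without Msi2 KO 1 to -0.066 without Msi2 KO 3, and was -0.34 without Msi2 KO 2 and -0.12 without control 4. Mycn, a MYC family factor, read 7.70 ± 0.23 in Msi2 KO and 8.61 ± 0.23 in control, a difference of -0.92 ± 0.17, Smad1, a mediator of BMP signals, differed by -0.68 ± 0.22, and Hhex stands on this list as well.

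**Figure D5:**
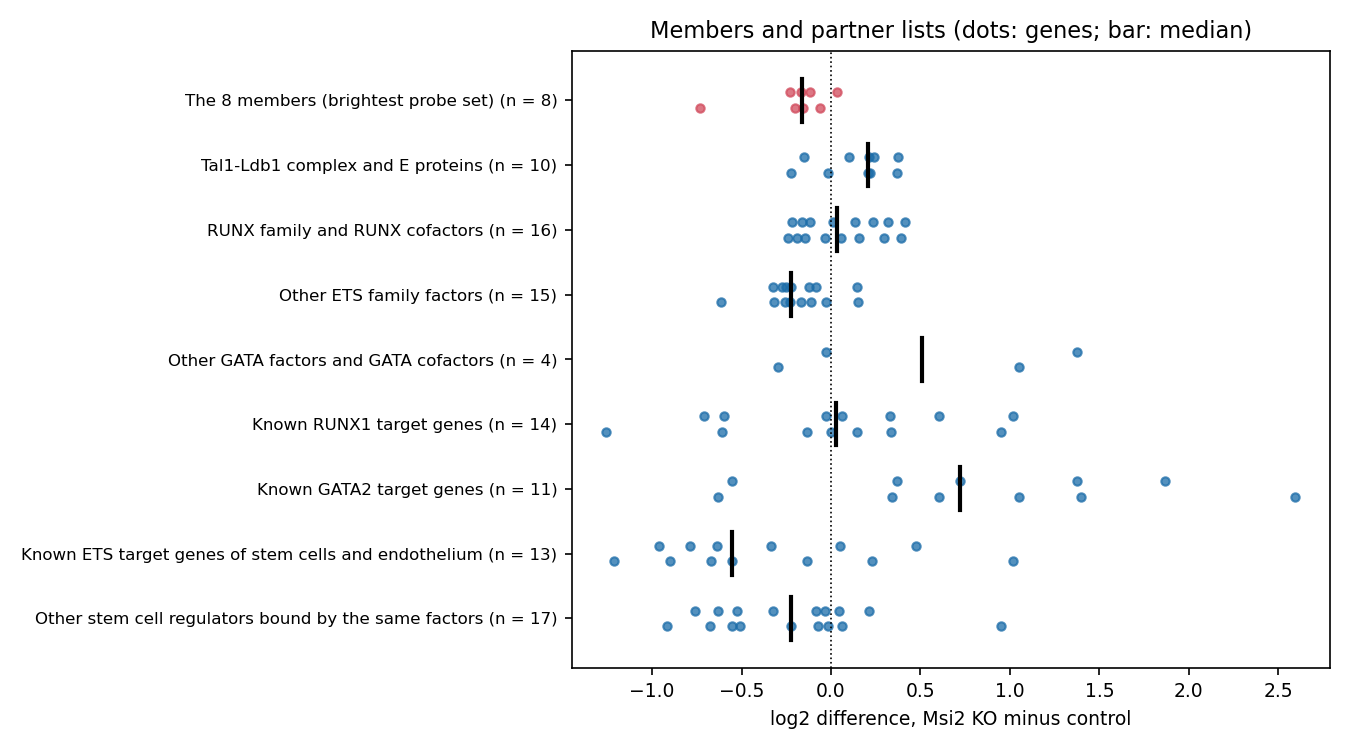
Log2 difference, Msi2 KO minus control (horizontal axis), of the brightest probe set of each gene in the members (top row) and in 8 partner and target lists (rows). Dots are genes and black bars medians. These lie at -0.16 for the members, -0.23 for other ETS factors with Gabpb1, -0.55 for ETS targets and 0.72 for GATA2 targets.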

How the data were processed

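RNA of LSK cells from 4 mice with conditional Msi2 KO and 4 normal mice was read on 8 Affymetrix mouse arrays. The authors deposited log2 signals of probe sets, made with RMA per the submitters' processing notes. RMA corrects background, quantile-normalizes arrays and summarises probes, and the sources used here name no version. Of 45101 probe sets, 20664 (45.8%) were exactly 0 on all arrays, which RMA does not give, and were left out with 64 AFFX controls. Gene names came from the platform annotation, updated through gene IDs with a RefSeq table of GRCm38.p6: 34958 probe sets had 1 gene, of which 34754 matched by gene ID. A further 932 had several genes there and 9211 had none.

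Groups were compared with limma 3.58.1 (R 4.3.3, two-sided, lmFit with the default eBayes prior) on 24404 probe sets and on 10720 genes, each gene by its brightest probe set, adjusted by Benjamini-Hochberg and called at 0.05. Every adjusted p of a probe set or gene is from limma. Permutation tests were exact, over all 70 ways to assign the arrays, or all pairings for correlations. Tested on simulated data of 24404 probe sets for Msi2 KO against control with 200 changed, the fit recovered 42.0% of those changed by 1 on the log2 scale with 12 false calls, 86.5% of those changed by 2 with 6, and 98.5% of those changed by 3 with 8. The simulated noise was normal, independent between probe sets and of the same SD in both groups, and no simulated array stood apart. These shares therefore do not carry over to the real arrays, where Msi2 KO 3 did. The members and the lists were chosen with earlier results of these data known. The lists come from textbook knowledge, and each names its 3 genes with the smallest p. The correlations and differences between probe sets of a gene, the order of the KO arrays and the list overlaps were chosen after the values were seen. Genes of the lists that the annotation here does not hold are not analysed here.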

Additional observations from a re-analysis of the deposited data

Results flagged for a closer look

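Of 32 groups of 4 arrays (16 member probe sets, Msi2 KO and control), 4 held an array whose gap to the nearest other, divided by the group's range, exceeded Dixon's 95% critical value, where chance gives about 1 in 20. Fli1 1422024_at read 8.24 on Msi2 KO 3, against 9.23 to 9.33 on the other KO arrays. Erg 1425370_a_at read 7.98 on Msi2 KO 3, against 9.40 to 9.67 on the other KO arrays. Etv6 1423401_at read 10.17 on control 1, against 9.24 to 9.39 on the other controls. Lyl1 1419120_at read 9.92 on control 3, against 10.09 to 10.10 on the other controls.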

How the results depend on the processing

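No member probe set passed limma's adjusted threshold under any of the 17 alternatives (smallest adjusted p 0.301), and 11 of the 16 kept their sign under all of them that gave a value. Among all probe sets 1 passed with repeated quantile normalization, with dim probe sets left out and with array weights, 2 with an intensity trend and robust prior, and 0 to 1 without single arrays. Among all genes 4 passed with Xist, the RNA of the inactive X chromosome, as a covariate, Fcer1a among them, and 0 to 1 without single arrays. Member probe sets whose groups did not overlap numbered 4 in the 5 arrays with high Xist alone (2 Msi2 KO and 3 control), and 1 to 2 without single arrays. Smaller groups separate more often by chance, and the share over all probe sets in these settings is not given here. These counts are therefore not set against that from all 8 arrays. Signs turned for Gata2 1450333_a_at with array weights (-0.062), for Runx1 1422865_at (-0.067), Gata2 1428816_a_at (-0.0035) and Gata2 1450333_a_at (-0.11) in the high-Xist arrays, and for Med1 with the mean of all its probe sets (0.022). Medians of lists turned with dim genes left out for ETS targets (-0.55, against 0.48 over 3 genes), endothelial markers (-0.64, against 0.019 over 2) and other GATA factors (0.51, against -0.16 over 2), that of GATA2 targets was 0.34 over 5 genes, and fewer genes were tested there. That of the RUNX family was -0.10 and that of RUNX1 targets -0.0022 in the high-Xist arrays, and the RUNX family's was -0.0036 with the mean of all probe sets. Without single arrays the difference ran from -0.15 to 0.015 for Runx1 1422864_at, -0.062 to 0.16 for Runx1 1422865_at, -0.30 to 0.058 for Fli1 1422024_at, -0.033 to 0.15 for Gata2 1428816_a_at and -0.18 to 0.18 for Gata2 1450333_a_at. Erg 1440244_at ran from -0.93 to -0.46 without single arrays and was -1.26 in the high-Xist arrays. The causes were not tested. With the replicate number as a block no call changed and 0 probe sets passed (Erg 1440244_at -0.74, adjusted p 0.517). Same-numbered arrays had correlations of their deviations of 0.132, -0.121, 0.079 and -0.038. The labels name no pairs, and these values cannot tell whether same-numbered samples share more than the number. The number of arrays limits what could be seen.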

Other observations

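Marker lists of the cells that LSK cells give rise to, or that express the same factors, were read as a description, and none of their genes passed the adjusted threshold. Of 8 measured stem and progenitor markers 7 were lower in Msi2 KO, with a median difference of -0.63, and -0.05 without Msi2 KO 3. All 10 measured erythroid markers were higher, with a median of 1.37, which was 0.93 without Msi2 KO 3 and 1.02 without control 1. Hba-a1 and Sptb were listed at 0. Of 7 mast cell and basophil markers 5 were higher (median 1.40, 0.86 without Msi2 KO 3 and 1.26 without control 1). Of 5 megakaryocyte and platelet markers 3 were higher (median 0.19, with a range of -0.10 to 0.58 when single arrays were left out). Gp1bb, Gp9, Treml1, Tubb1 and Gp6 were listed at 0. Of 9 endothelial markers 7 were lower (median -0.64, and 0.019 over the 2 left without genes below the median level of all genes). The 3 measured markers of mature lineages, Ngp, S100a8 and S100a9, had a median difference of 0.06, which ran from -0.15 to 0.25 when single arrays were left out and was 0.14 without Msi2 KO 3.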
